A study of Solanum lycopersicum with 18 samples.

Results

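The genes described here had less RNA in wild-type tomato fruit at 45 DAP than at 35 DAP, and more in fruit of the rin mutant over the same 10 days. They were chosen on group means of RPKM, which divides the reads of a gene by its length and its library's total. For each genotype the mean at 45 DAP plus 1 was divided by the mean at 35 DAP plus 1. A gene was a member with a ratio of at most 0.5 in the wild type, a ratio of at least 2 in rin, and a mean of at least 5 RPKM in the wild type at 35 DAP or in rin at 45 DAP. This gave 157 members of 35802 genes listed. They were 2.93% of the 5359 genes that met the wild-type bound and the floor, and 9.79% of the 1604 that met the rin bound and the floor. The mirrored rule, up in the wild type and down in rin, gave 32 genes.

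The libraries came from sliced and frozen fruits of tomato (Solanum lycopersicum), with 3 libraries in each of 6 groups. The wild type was cultivar Ailsa Craig, rin was line LA3754 in an Ailsa Craig background, and TF18 was a transgenic Ailsa Craig line with FUL1 and FUL2 suppressed. All plants shared the same glasshouse conditions, and the labels call the fruit of 35 DAP green and that of 45 DAP pink in every genotype. TF18 is 1 line, and the labels used here give neither its promoter nor the number of fruits or plants behind a library, so p-values measure the spread between libraries, which may be technical. Fruits of different genotype were matched by age and not by appearance.

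The genes RIN, FUL1 and FUL2 encode transcription factors of the MADS-box family, proteins that bind DNA as dimers and larger complexes. RIN is a central regulator of fruit ripening, and fruits of the rin mutant stay firm and do not turn red. FUL1 and FUL2 are related to FRUITFULL of Arabidopsis and can act together with RIN. During normal ripening a tomato fruit stops growing, dismantles its chloroplasts, accumulates carotenoids and softens, and many genes of the green fruit lose expression. The table does not pair its identifiers with gene names, and none of them was found in the RefSeq gene table used here. The members are therefore given by identifier with no role. For the same reason the targeted genes RIN, FUL1 and FUL2 and the marker genes of fruit tissue were not checked.

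Read totals recovered from the values ran from 5740900 to 17334324 per library, and the 3 wild-type libraries of 45 DAP were among the shallower ones, at 10452311, 5740900 and 7888620 reads. Reads over the members numbered 4875 in the wild-type replicate 2 of 45 DAP, the lowest, and 209050 in rin replicate 1 of 45 DAP, the highest. At the median coding length of the members, 1026 bases, 3 reads correspond to 0.509 RPKM in that shallowest library and to 0.280 and 0.371 RPKM in wild-type replicates 1 and 3 of 45 DAP. Members without a read numbered 21 in that library, 7 and 5 in the other wild-type libraries of 45 DAP, and 0 to 7 in the rest. The same 3 reads correspond to more RPKM in a shorter gene, and a count of 0 does not show the absence of RNA. These limits cover counting error only. In whole fruits, less RNA per cell and fewer cells of a type cannot be told apart.

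The median member had a mean of 11.7 RPKM in the wild type at 35 DAP and 2.74 RPKM at 45 DAP, and a mean of 8.52 RPKM in rin at 35 DAP and 26.3 RPKM at 45 DAP. The wild-type ratio ran from 0.0446 to 0.4995 with a median of 0.319, and the rin ratio ran from 2.03 to 18.4 with a median of 2.65. In rin at 45 DAP 26 members reached 100 RPKM, and the highest mean was 2164 RPKM. Ratios at or under 0.25 in the wild type were found for 40 members, ratios of 4 or more in rin for 31, and both for 8. These ratios chose the members and are given as a description, with no test. The members closest to the wild-type bound had ratios of 0.4995 and 0.4926, and the genes just outside it, which met the other criteria, had 0.5043 and 0.5108. The members closest to the rin bound had ratios of 2.028 and 2.029, and the genes just outside had 1.994 and 1.993.

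**Figure D1:**
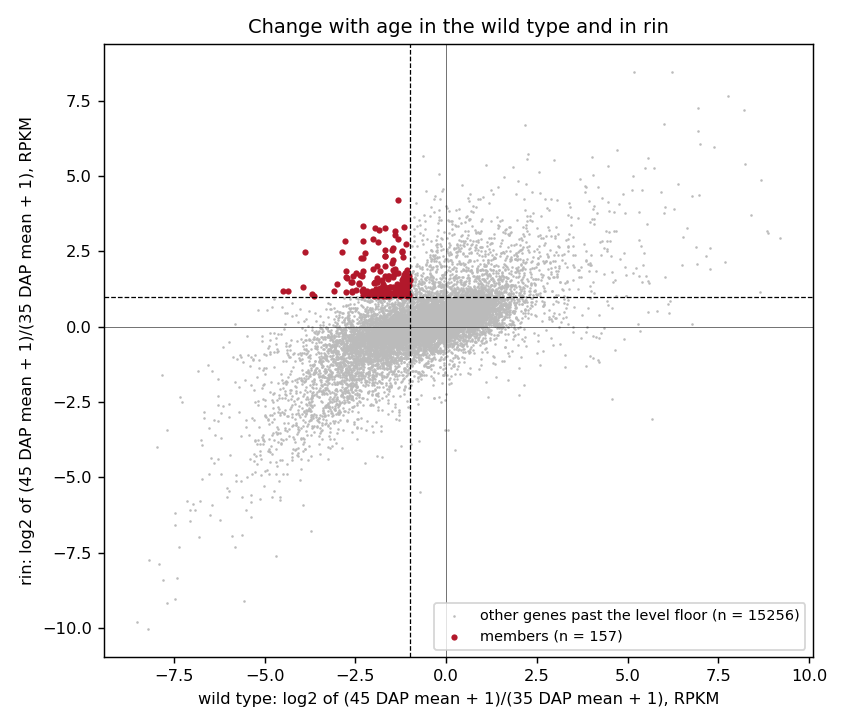
Ratio of the mean at 45 DAP to the mean at 35 DAP, each plus 1 RPKM, on a log2 scale, in the wild type (x axis) and in rin (y axis). Each point is a gene past the level floor, the dashed lines are the bounds of the rule, and the 157 members in red fill the upper left corner by construction, most of them close to the bounds.

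A group mean does not show how well the libraries of 2 ages keep apart. For 140 members all 3 wild-type libraries of 45 DAP lay below all 3 of 35 DAP, as did 49.7% of the 20658 genes tested. For 118 members all 3 rin libraries of 45 DAP lay above all 3 of 35 DAP (25.1% of genes tested). Both held for 107 members (3.84% of genes tested). The limma calls need a change of 1 or more on the log2 scale, up or down, besides an adjusted p under 0.05. By these calls 133 members were lower in the wild type (34.2% of genes tested) and 105 higher in rin (7.49% of genes tested). Both calls were made for 94 members (0.532% of genes tested). Since these contrasts chose the members, the counts describe how separated the libraries were and carry no further weight. For 50 members the libraries overlapped in at least 1 of the genotypes.

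The median over all genes had moved down in the wild type on the deposited scale. Over all genes tested the median log2 fold change of 45 against 35 DAP was -0.58 in the wild type and 0.04 in rin on the deposited scale. The members had -1.66 and 1.34. With TMM-type scaling, which sets libraries level by their bulk of genes, the medians over all genes were -0.14 and 0.00, and the members had -1.21 and 1.30. With quantile normalization they were 0.02 and 0.03, and the members had -0.90 and 1.33. The wild-type side of the rule is thus the one that moves with the scaling, and the rule itself gave 90 members after TMM-type scaling and 66 after quantile normalization, of which 89 and 55 belong to the 157. In the wild type the limma calls of lower genes numbered 84 and 55 among the 157 members under these scalings, where all genes had 4882 and 3515 against 7072 as deposited. In rin the calls of higher genes numbered 100 and 96 among the members, where all genes had 1437 and 1499 against 1547.

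Solyc05g051850, on chromosome 5 by its identifier, had the widest gap between the genotypes and the highest level in rin at 45 DAP. It stood at 212, 140 and 153 RPKM in the wild type at 35 DAP and at 8.61, 14.4 and 8.43 RPKM at 45 DAP. In rin it stood at 551, 300.7 and 302 RPKM at 35 DAP and at 1365, 2254 and 2874 RPKM at 45 DAP. In neither genotype did the ages overlap. All 3 rin libraries of 45 DAP were above every library of the other 5 groups. In rin at 45 DAP this gene alone held 13.4%, 16.0% and 24.0% of the summed RPKM of all members.

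Solyc10g005070, with the next widest gap, had the lowest ratio of all members in the wild type, 0.0446. Its wild-type libraries held 62.9, 91.1 and 35.3 RPKM at 35 DAP and 3.73, 0.754 and 1.10 RPKM at 45 DAP, the latter from 9, 1 and 2 reads. The rin libraries held 44.7, 67.7 and 22.4 RPKM at 35 DAP and 108, 109 and 92.6 RPKM at 45 DAP. The ages did not overlap in either genotype. By limma the wild-type fall was called, but the rin rise, with a log2 fold change of 1.31, was not. The gene has a coding length of 231 bases, and its 3 libraries per group held 731 reads in the wild type at 35 DAP and 942 in rin at 45 DAP.

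Solyc00g174340 and Solyc05g024260 had the highest levels of all members in the wild type at 35 DAP. Solyc00g174340, whose identifier carries 00 in place of a chromosome number, held 111, 172 and 465 RPKM in the wild type at 35 DAP and 37.9, 23.2 and 234 RPKM at 45 DAP. In rin it held 196, 67.5 and 169 RPKM at 35 DAP and 242, 1641 and 1405 RPKM at 45 DAP. The wild-type ages overlapped, through replicate 3 of 45 DAP, and the rin ages did not, with replicate 1 of 45 DAP only a little above those of 35 DAP. Solyc05g024260 held 244, 181 and 422 RPKM in the wild type at 35 DAP and 120, 26.7 and 61.4 RPKM at 45 DAP. In rin it held 184, 324 and 362 RPKM at 35 DAP and 1082, 1043 and 1151 RPKM at 45 DAP, which are close to each other and far above the younger fruit.

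The start and the end of the interval were then compared between genotypes, again as a description. At 35 DAP the ratio of the rin mean to the wild-type mean, each plus 1 RPKM, had a median of 0.746 over the members and 0.963 over all genes tested. The ratio was at most 0.5 for 16 members (0.876% of genes tested). A rule that asks for a fall in one genotype and a rise in the other favours genes that start lower in rin. The libraries did not overlap at 35 DAP for 24 members, with rin below the wild type in 22 of them (6.68% of genes tested) and above it in 2 (3.74% of genes tested). At 45 DAP the same ratio had a median of 7.14 over the members and 1.40 over all genes tested. All 3 rin libraries lay above all 3 wild-type libraries for 147 members (41.8% of genes tested). The rin fruit of 45 DAP also stood above the green wild-type fruit. Its mean was the higher one for 154 members (50.2% of genes tested), and its 3 libraries lay above all 3 of the wild type at 35 DAP for 92 (25.2% of genes tested). The median ratio of rin at 45 DAP to the wild type at 35 DAP was 2.19, against 1.004 over all genes tested.

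The libraries of TF18, the line labelled as FUL1 and FUL2 suppressed, took no part in the choice of the members. Between 35 and 45 DAP 5 members rose and 2 fell in TF18 by limma. Over all genes tested 117 rose and 30 fell, so the background is 0.566% for rises and 0.145% for falls. The calls made up 3.18% and 1.27% of the members. They were 1.94% and 0.208% of the other genes that met the rin bound and the floor. For the other genes that met the wild-type bound and the floor they were 0.654% and 0.115%. The differences between these sets were not tested. After quantile normalization the numbers over all genes were 72 and 37. The other 150 members did not pass. Over all genes, 65 rose and 13 fell without TF18 replicate 2 of 35 DAP, 66 fell without replicate 3 of 35 DAP, and 18 fell without replicate 2 of 45 DAP. An unadjusted limma p under 0.05 was found for 37 members (9.72% of genes tested), 30 of them with a higher level at 45 DAP (7.16% of genes tested) and 7 with a lower one (2.56% of genes tested). The count of called members was small and moved when single libraries were left out. It was 3 higher and 1 lower without TF18 replicate 2 of 35 DAP, and 3 higher without TF18 replicate 3 of 45 DAP. Without TF18 replicate 3 of 35 DAP or replicate 1 of 45 DAP it was 6 higher (of 127 and 128 genes in all) and 1 lower. Without TF18 replicate 2 of 45 DAP it was 0 lower. With library weights 20 members of 646 genes in all were called higher. With only the TF18 groups in the limma fit, 3 members of 66 genes in all were called higher and 0 of 8 lower. In that fit 9 members were lower at an unadjusted limma p under 0.05 (2.93% of genes tested). Without replicate 2 of 45 DAP, 6 members were lower at an unadjusted limma p under 0.05 (2.05% of genes tested).

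The median log2 fold change in TF18 was 0.35 over the members and 0.08 over all genes tested, with a range from -2.08 to 4.66 over the members. With quantile normalization these medians were 0.19 and -0.02. The ratio of means reached 2 for 33 members, 21.0% of them, and 4.2% of genes tested. It was at or under 0.5 for 7 members (1.66% of genes tested), and for 117 members it lay between these bounds (94.1% of genes tested). Genes past the same level floor are the closer background, and 3.93% of these 15413 had a TF18 ratio of 2 or more. Among the other genes that met the rin bound, 20.2% of 1447 had such a TF18 ratio, with a median log2 fold change of 0.28. Among the other genes that met the wild-type bound, 3.69% of 5202 had it, with a median of 0.06. TF18 ratios at or under 0.5 were found for 4.46% of the members, 1.45% of the other genes that met the rin bound and 3.42% of those that met the wild-type bound. These sets share the wild-type and rin libraries with the rule, and the differences between them were not tested. All 3 TF18 libraries of 45 DAP lay above all 3 of 35 DAP for 30 members (12% of genes tested) and below them for 11 (4.31% of genes tested). For 27 members all TF18 libraries of 45 DAP lay above and all wild-type libraries of 45 DAP lay below those of 35 DAP (5.88% of genes tested). For 9 members all TF18 libraries of 45 DAP lay below and all rin libraries of 45 DAP lay above those of 35 DAP (0.934% of genes tested).

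**Figure D2:**
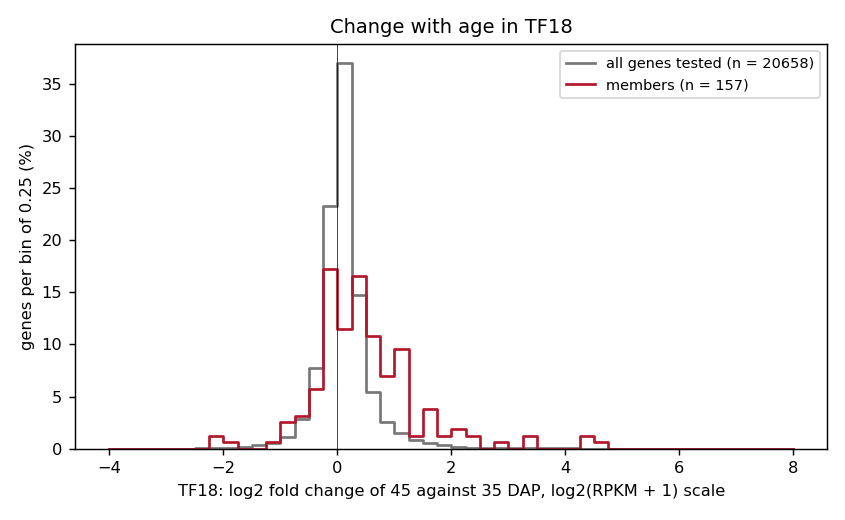
Log2 fold change of 45 against 35 DAP in TF18, on the log2(RPKM + 1) scale, for the 157 members (red) and for all 20658 genes tested (grey), as percent of genes in bins of 0.25. The median is 0.35 over the members and 0.08 over all genes tested. The lower and upper quartiles are -0.10 and 0.88 over the members, further apart than the -0.09 and 0.27 over all genes tested. The full range is the wider one over all genes tested, from -3.36 to 7.79, against -2.08 to 4.66 over the members. The other genes that met the rin bound and the floor, not drawn, have similar quartiles to the members, -0.03 and 0.82.

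The members that rose in TF18 were nearly silent there at 35 DAP. Solyc03g117800 held 0.137, 0 and 0.454 RPKM in TF18 at 35 DAP, from 4, 0 and 10 reads, and 19.0, 24.5 and 50.9 RPKM at 45 DAP. Its TF18 libraries of both ages were far apart, the log2 fold change was 4.66 with SE 0.49 (limma, adjusted p = 0.00029), and its call held under every one of 15 alternatives. In rin the same gene went from 4.35, 7.03 and 1.92 RPKM to 71.3, 30.8 and 58.1 RPKM. In the wild type it was low at both ages, at 4.16, 2.29 and 2.64 RPKM and then 0.0497, 0.0904 and 2.24 RPKM. Its wild-type ages kept apart only narrowly, since replicate 3 of 45 DAP lay just under the lowest library of 35 DAP.

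Solyc09g097760 held 2.72, 1.31 and 0.470 RPKM in TF18 at 35 DAP and 15.8, 94.3 and 85.6 RPKM at 45 DAP. The log2 fold change was 4.47 with SE 0.91 (limma, adjusted p = 0.032). The TF18 ages did not overlap. Over the alternatives its adjusted limma p ran from 0.0038 to 0.14, and the call was lost under 11 of 15. The p was 0.056, 0.13 and 0.089 without TF18 replicates 1, 2 and 3 of 35 DAP, and 0.14 and 0.13 without replicates 2 and 3 of 45 DAP. In rin it held 105, 15.6 and 3.84 RPKM at 35 DAP and 105, 277 and 260 RPKM at 45 DAP. The rin ages met at the level of replicate 1 without overlapping, and the wild-type libraries stayed under 21 RPKM at both ages.

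The other 3 members that rose in TF18 had log2 fold changes of 2.45 to 4.39, with limma adjusted p of 0.0023 to 0.010. Their TF18 means were 0.0954 to 1.46 RPKM at 35 DAP and 11.2 to 21.8 RPKM at 45 DAP. All 3 thus started under 2 RPKM in TF18, where the wild type of the same age held 3.50 to 10.1 RPKM.

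Both members that fell in TF18 were higher there at 35 DAP than in the other genotypes. Solyc03g006250 held 125, 282 and 226 RPKM in TF18 at 35 DAP and 42.9, 27.4 and 84.8 RPKM at 45 DAP, a change of -2.08 (log2, SE 0.43; adjusted p = 0.036 by limma). In the wild type at 35 DAP it held 23.3, 15.4 and 9.19 RPKM, and in rin 11.4, 10.7 and 13.3 RPKM. Every TF18 library of 35 DAP was thus above every library of the other groups. At 45 DAP rin held 87.3, 43.1 and 75.5 RPKM, overlapping with TF18, and the wild type 3.85, 1.22 and 2.66 RPKM. Over the alternatives the adjusted limma p of the TF18 fall ran from 0.010 to 0.21, and the call was lost under 7 of 15. It was 0.19 and 0.090 without TF18 replicates 2 and 3 of 35 DAP, and 0.097 and 0.16 without replicates 1 and 2 of 45 DAP.

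Solyc11g012360 held 26.0, 29.6 and 43.5 RPKM in TF18 at 35 DAP and 4.35, 6.13 and 12.3 RPKM at 45 DAP, a change of -2.06 (log2, SE 0.36; adjusted p = 0.010 by limma). The ages were well apart in TF18. The adjusted limma p was 0.054 without TF18 replicate 2 of 45 DAP and ran from 0.0043 to 0.13 over all 15 alternatives. The wild type went from 14.2, 6.42 and 12.1 RPKM to 1.79, 0.315 and 0.841 RPKM. In rin the gene went the other way, from 8.26, 10.7 and 8.00 RPKM to 24.8, 21.4 and 17.6 RPKM.

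The 4 members named for their wild-type and rin levels did not pass in TF18. Solyc05g051850 held 551, 512 and 367 RPKM in TF18 at 35 DAP and 131, 184 and 331 RPKM at 45 DAP. The ages did not overlap, with a change of -1.23 (log2, SE 0.36; adjusted p = 0.16 by limma) that lies on the side of the wild type and against rin. Solyc10g005070 held 51.2, 39.4 and 15.9 RPKM and then 34.5, 91.4 and 56.0 RPKM, with a change of 0.80 (log2, SE 0.51; adjusted p = 0.73 by limma). Solyc00g174340 held 97.4, 124 and 95.7 RPKM and then 690, 533 and 104 RPKM, with a change of 1.67 (log2, SE 0.91; adjusted p = 0.63 by limma). Replicate 3 of 45 DAP stood with the younger fruit. Solyc05g024260 held 89.4, 41.03 and 64.2 RPKM and then 54.0, 185 and 244 RPKM, with a change of 1.11 (log2, SE 0.56; adjusted p = 0.56 by limma). With library weights Solyc05g024260 was called, with a limma adjusted p of 0.036, and over all alternatives this p ran from 0.036 to 1. For Solyc10g005070, Solyc00g174340 and Solyc05g024260 the TF18 ages overlapped.

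**Figure D3:**
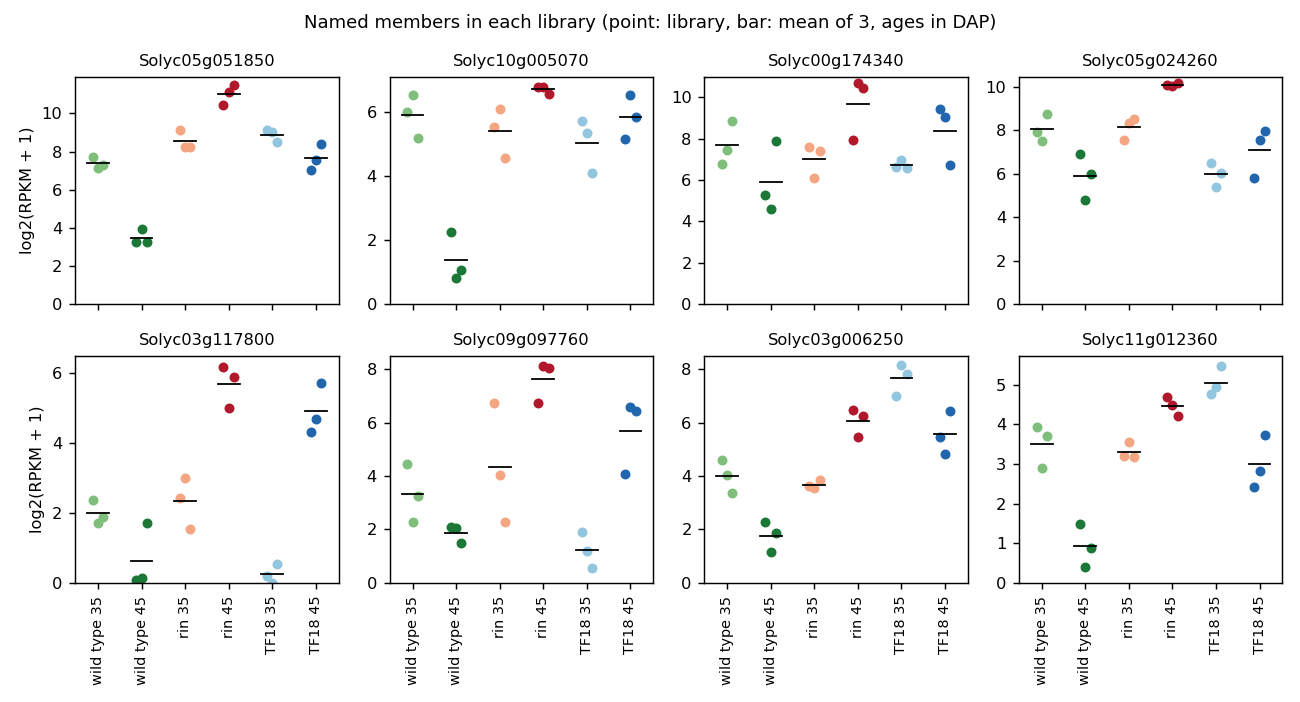
Level of the 8 named members in each library, as log2(RPKM + 1) on the y axis, with the 6 groups on the x axis. Points are libraries and bars the means of 3. In the lower row, Solyc03g117800 and Solyc09g097760 go up with age in rin and TF18, and Solyc03g006250 and Solyc11g012360 go up in rin and down in TF18.

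At 45 DAP the TF18 mean lay below that of the wild type for 8 members (25.9% of genes tested) and above that of rin for 27 (61.6% of genes tested). For the other members it lay between them, a place for which no share over all genes was counted. The rule sets no order between the genotypes at this age, but opposite changes favour rin above the wild type. In the members the lowest ratio of rin to the wild type at 45 DAP was 2.36. A place between them is thus favoured by the choice. All 3 TF18 libraries were above all 3 wild-type libraries for 128 members (54.4% of genes tested), and below them for 3 (11.3% of genes tested). All 3 were below all 3 rin libraries for 79 members (15.4% of genes tested), and above them for 5 (30.8% of genes tested). The median ratio of TF18 to the wild type was 4.29, against 1.66 over all genes tested, and it was at least 2 for 140 members (40.8% of genes tested) and at least 4 for 88 (15.2% of genes tested). The median ratio of TF18 to rin was 0.590, against 1.14 over all genes tested, and it was at most 0.5 for 61 members (7.42% of genes tested).

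At 35 DAP the members of TF18 scattered on both sides of the wild type. The median ratio was 1.04, against 1.10 over all genes tested, but the middle 50% of members ran from 0.553 to 1.51, where all genes tested had 0.893 to 1.30. TF18 was at or under 0.5 of the wild type for 33 members (8.17% of genes tested) and at least 2 times the wild type for 19 (4.71% of genes tested). The libraries did not overlap for 35 members with TF18 below the wild type (12.4% of genes tested) and for 26 with TF18 above it (24.2% of genes tested). The TF18 ratios of these low and high starts were also counted, as a description. Of the 33 low ones, 19 had a TF18 ratio of 2 or more and 0 had a ratio at or under 0.5. Of the 19 high ones, 0 had a ratio of 2 or more and 6 had a ratio at or under 0.5. Both counts use the TF18 libraries of 35 DAP, so a low start favours a later rise in them, and a high start a later fall. The same counts were not made over all genes with such starts, so nothing particular to the members can be read from them. Of the members called in TF18, 4 of the 5 rises were among the low starts and the 2 falls among the high ones. A call in TF18 favours such starts in the same way, and the share over all called genes was not counted.

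**Figure D4:**
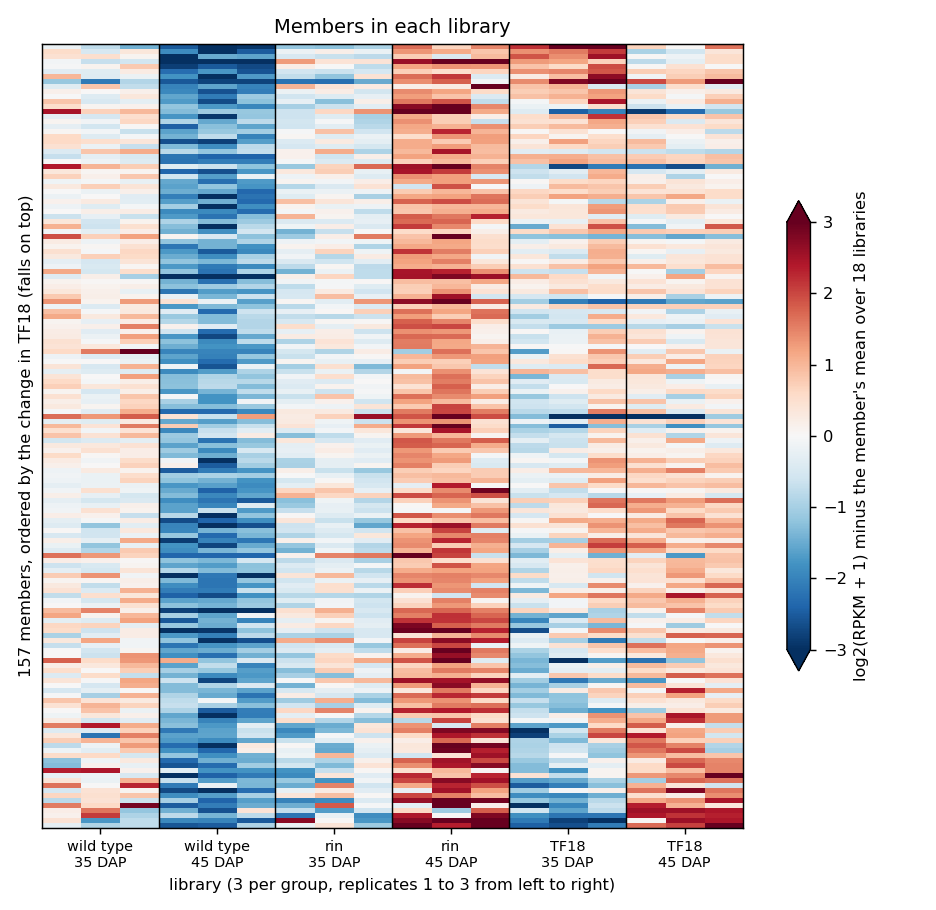
Level of the 157 members (rows) in the 18 libraries (columns, 3 per group), as log2(RPKM + 1) minus the member's mean over all libraries, with rows ordered by the change in TF18. The wild type at 45 DAP is low and rin at 45 DAP is high for nearly all rows, as the rule favours, while TF18 goes from falls in the top rows to rises in the bottom rows.

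By library, the median member stood at 3.68, 3.52 and 3.87 on the log2(RPKM + 1) scale in the wild type at 35 DAP and at 1.74, 1.40 and 2.07 at 45 DAP. In rin it stood at 3.10, 3.38 and 2.99 and then at 4.75, 5.08 and 4.41. In TF18 it stood at 3.16, 3.30 and 3.94 and then at 3.95, 4.12 and 4.07. TF18 replicate 3 of 35 DAP was the library that stood apart within its group. It had the highest level of the 3 for 106 members, 67.5%, and for 46.9% of all genes tested, and its median was within 0.01 of TF18 replicate 1 of 45 DAP. Without it the median log2 fold change of the members in TF18 was 0.58, and without replicate 1 or 2 of 35 DAP it was 0.17 or 0.22. Wild-type replicate 2 of 45 DAP was the lowest of its group for 56.1% of the members and for 55.1% of all genes tested. In rin at 45 DAP replicate 2 was highest for 54.1% of the members and 29.2% of all genes tested.

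**Figure D5:**
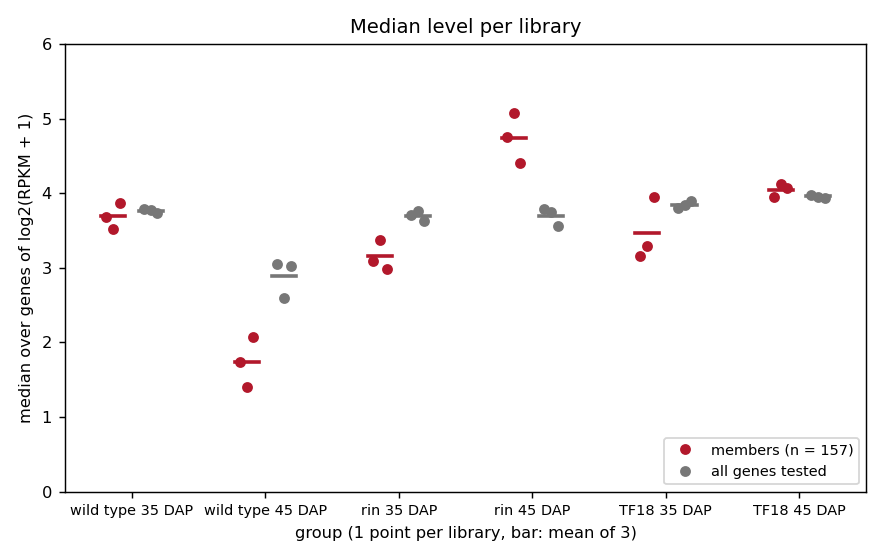
Median of log2(RPKM + 1) over the 157 members (red) and over all genes tested (grey), 1 point per library and bars for the mean of 3. On the deposited scale the median over all genes is lower in the wild type at 45 DAP, and that of the members is lower still. In rin at 45 DAP the median of the members lies above that of all genes, and in TF18 both medians are close to 4 at 45 DAP.

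Together the members held 0.347%, 0.303% and 0.411% of the summed RPKM in the wild type at 35 DAP and 0.0926%, 0.0541% and 0.0958% at 45 DAP. In rin the share went from 0.281%, 0.302% and 0.290% to 0.956%, 1.19% and 0.939%, and without Solyc05g051850 the 3 older libraries had 0.827%, 0.996% and 0.713%. In TF18 it went from 0.334%, 0.381% and 0.541% to 0.448%, 0.485% and 0.513%, and the ages overlapped.

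The members varied more between replicates than other genes did. The median coefficient of variation over the 3 libraries was 33.0% in the wild type at 35 DAP, against 16.8% over all genes tested, and 43.8% in TF18 at 35 DAP, against 20.5%. In the other 4 groups it was 31.5% to 54.4% for the members and 19.2% to 36.4% for all genes tested. A rule on ratios of 3-library means favours variable genes in the wild type and in rin, while the TF18 libraries were not used by it.

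Coding length did not set the members apart, with a median of 1026 bases, the same as over all genes tested, and quartiles of 588 and 1554 bases against 576 and 1587. By the number in their identifiers the members were found on all 12 chromosomes. Their share of the genes tested was 0.760% in all and went from 0.261% on chromosome 1, with 7 members of 2687, to 1.10% on chromosome 10, with 15 members of 1361. Members with directly successive identifiers in the table formed 7 pairs, 3 on chromosome 2, 2 on chromosome 8 and 1 each on chromosomes 4 and 10, which hold 8.92% of the members. No run was longer than a pair. The share of such pairs over all genes was not counted.

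None of the 14 genes in these pairs passed the limma test in TF18. Their log2 fold changes there were close within each pair, while their levels in TF18 were close in some pairs and far apart in others. Solyc10g005070 and the gene that follows it had log2 fold changes of 0.80 and 0.72 in TF18, and means of 63.1 and 153 RPKM in the wild type at 35 DAP. The steepest pair, on chromosome 2, had log2 fold changes of 1.20 and 0.97, and the pair on chromosome 4 had -0.77 and -0.76. In all 7 pairs the log2 fold changes in TF18 had the same sign and differed by at most 0.23. How reads shared between neighbouring or near-identical genes were counted is not given in the sources used here, so the genes of a pair may not be independent measurements.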

How the data were processed

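The authors deposited 1 table of RPKM values, with 18 library columns named by the sample titles and 0 columns without a sample. CASAVA 1.8.1 and Bowtie2 are named, with no role, in the submitters' processing notes. For the build, the annotation and the counter, the name was not given in the sources used here. Titles gave each library's group and number.

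Reads and coding lengths were solved from the steps of the values. Within 0.02 reads, 100% of the values above 0 of 28612 genes were whole. On simulated data 3948 of 3954 genes and all 18 totals were returned exactly.

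Tests used limma 3.58.1 in R 4.3.3 on log2(RPKM + 1), with 6 group means over 18 libraries, a variance trend and two-sided Benjamini-Hochberg adjusted p-values over the 20658 genes that reached 1 RPKM in 3 or more libraries. All 157 members passed this filter. Fold changes on this scale understate the change of low genes. In data simulated for TF18 at 45 against 35 DAP over 20658 genes, 70% of 100 changes of 1.5 (log2) and 100% of 100 changes of 3 were recovered, and 11 unchanged genes were called. These changes were placed only in genes with a mean log2 level above 3 in TF18 at 35 DAP. The members called higher in TF18 lay below this level there, so the recovery does not apply to them. The simulated noise was drawn separately for each gene and library, with no shift shared by the genes of a library. The wild-type and rin contrasts were fitted too, but as they chose the members their calls are used only as a description. Python 3.11.15, numpy 2.4.6, pandas 2.3.3 and matplotlib 3.10.9 were used for the rest.

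Members, lists and named genes were chosen with earlier results of these data known. With no annotation of the identifiers, the planned keyword lists, marker lists and promoter searches were not formed, and at most 2 identifiers per ranking are named: widest gap between the genotypes, highest mean in rin at 45 DAP, highest mean in the wild type at 35 DAP, and largest called rises and falls in TF18. Alternatives covered the pseudocount, the filter, the scaling, the fold and level bounds, library weights, the groups fitted, a replicate block and single libraries left out.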

Additional observations from a re-analysis of the deposited data

Results flagged for a closer look

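For 107 members all wild-type libraries of 45 DAP lay below those of 35 DAP and all rin libraries of 45 DAP lay above those of 35 DAP, as for 3.84% of genes tested. The rule asks for opposite changes in these genotypes, and the difference was not tested. For 27 members all wild-type libraries of 45 DAP lay below those of 35 DAP while all TF18 libraries of 45 DAP lay above theirs, as for 5.88% of genes tested. For 9 members all rin libraries of 45 DAP lay above those of 35 DAP while all TF18 libraries of 45 DAP lay below theirs, as for 0.934% of genes tested. Neither of these differences was tested, because the wild-type or rin side chose the members.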

How the results depend on the processing

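The number of members was 203 with a pseudocount of 0.5 RPKM, 205 with medians, 171 with no level floor and 129 with a floor of 10 RPKM. It was 58 with a pseudocount of 5 RPKM, 90 with TMM-type scaling, 66 with quantile normalization, 587 with a fold bound of 1.5 and 32 with 3. Leaving out single wild-type or rin libraries gave 137 to 224, and 120 to 153 of the 157 were kept. In TF18, 117 genes were called higher and 30 lower. With a pseudocount of 5 RPKM 73 were higher, with quantile normalization 72 higher, and with a filter at 5 RPKM 19 lower. The TF18 groups alone gave 66 higher and 8 lower, and library weights 646 and 211. Of the members, 5 were called higher and 2 lower. Quantile normalization gave 3 higher, no filter 1 lower, the TF18 groups alone 3 higher and 0 lower, and library weights 20 higher. Leaving out single TF18 libraries gave 65 to 128 higher and 13 to 66 lower genes, 3 to 6 higher and 0 to 2 lower members, and a median of 0.17 to 0.58. With 1 library left out, the remaining 2 of a group are assumed to vary like the other groups. With the replicate block 75 genes were higher and 14 lower, and 2 members were higher and 1 lower. Same-numbered TF18 libraries of the 2 ages showed no common pairing, with correlations of deviations of -0.24, 0.237 and -0.175. Replicates 1, 2 and 3 of 35 DAP had 0.355, the highest, 0.237 and 0.252 with replicates 3, 2 and 1 of 45 DAP. A pairing under other numbers than those of the titles was not tested. Of 120 values of the 8 named members under alternatives, 99 kept their side of the threshold, 20 lost the call, 1 gained it, and 0 changed sign. Named members not called in the main fit had no call to lose. Of 15 alternatives each, the call was lost under 11 for Solyc09g097760, 7 for Solyc03g006250, 2 for Solyc11g012360 and 0 for Solyc03g117800. The causes of these shifts were not tested. Depth limits members of few reads, above all in the wild type at 45 DAP, where the median member had 21, 10 and 26 reads.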
